A study of Mus musculus with 4 samples.

Results

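The 38 genes described here encode the working parts of the mouse lysosome: the proton pump that acidifies it, the proteases and other hydrolases that digest its contents, and the membrane proteins that enclose it. They were taken as listed rows of the RNA matrix, which holds 32285 genes, and all 38 were found. By role they are 6 subunits of the V0 sector of the pump, 8 subunits of its V1 sector, 2 accessory pump proteins, 9 cathepsins and legumain, 7 membrane proteins and channels, and 6 soluble hydrolases and cofactors. The rule that lists them uses no measured value, though the set was proposed with earlier results of these data known.

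The vacuolar proton pump (V-ATPase) couples ATP hydrolysis in its V1 sector, on the cytosolic side, to proton transport through its V0 sector in the membrane. The acid it makes activates the cathepsins, which are proteases, and the hydrolases that break down sugars and lipids. In macrophages this system digests engulfed cells and antigen. In osteoclasts, the bone-resorbing cells of the monocyte lineage, the same pump is sent to the cell surface, where it dissolves bone mineral with the V0 isoform a3 (Tcirg1), the chloride-proton exchanger Clcn7 and its partner Ostm1, while cathepsin K digests the bone matrix.

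RNA and antibody tags were read from the same cells (CITE-seq) in ankle synovium of CD45.2 mice that had received CD45.1 bone marrow, with the ankles shielded from irradiation, on a B6 background. Untreated mice gave the baseline library (day 0). Mice given serum of K/BxN transgenic mice (serum-transfer arthritis, STIA) gave 1 library each at the peak of arthritis (day 7), at its plateau (day 14) and at resolution, on day 56. Live cells were sorted for CD45 and CD11b and against CD177, Ly6C, MHC class II, CD64, SiglecF and Ly6G. The titles of the arthritis samples, and not that of baseline, carry the tag "Clo-lip", which no label explains and which cannot be told apart from arthritis; ages and the number of mice per library are not given in the sources used here. CD45.1 marks progeny of the donor marrow. CD45.2 marks host cells, including what the shielded marrow may still supply.

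After filtering, the libraries held 1071, 5941, 2828 and 4611 cell barcodes in stage order, with 11957871 to 58705149 gene UMIs (unique molecules) each. Median depth per barcode fell between 4912 and 8250 UMIs. Between 4 and 15 barcodes of a library were shared with another library. Against the labelled gate, the baseline library carried 40400 CPM (gene UMIs scaled to a library total of 1000000) of 9 summed neutrophil markers, against 474 to 1653 CPM in the barcodes of the other libraries outside the osteoclast-marker class defined below. All 9 were detected in each of these. Fibroblast-like clusters held 2.74% to 6.37% of the same barcodes, although fibroblasts lack CD45. The gate also excluded Ly6C and MHC class II. Classical monocyte-like clusters, whose marker list includes Ly6c2, held 33.1%, 41.7%, 14.6% and 12.8% of barcodes outside that class in stage order. Unnamed cluster 13, of 1488 barcodes, had the MHC class II genes H2-Aa and H2-Ab1 among its top genes. The part of these cells in the stage differences below was not tested.

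Promoter sequence gave a first view of what the genes share. RefSeq promoter windows of the mouse build GRCm38.p6, from 250 bases before to 50 after a transcript start, were matched for 31 of the 38 genes. The 8-letter core of the CLEAR element, the site known to be bound by the lysosomal regulator TFEB, reads TCACGTGA on both strands. It stood in a window of 7 of the 31 matched genes (22.6%), against 304 of all 27025 genes (1.12%). The shorter E-box CACGTG, which lies inside it, stood in 11 of the 31 (35.5%) and in 8.09% of all genes. The 8 matches are printed because they are the part of the promoters that these genes share, each 5′ to 3′ on the gene's strand with the core in capitals.
Atp6v0d1: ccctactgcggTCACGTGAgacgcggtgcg
Atp6v0e: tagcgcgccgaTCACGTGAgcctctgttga
Atp6v1a: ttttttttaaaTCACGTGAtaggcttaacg
Ctsa, upstream match: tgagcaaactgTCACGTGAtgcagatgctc
Ctsa, downstream match: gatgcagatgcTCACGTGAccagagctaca
Ctsd: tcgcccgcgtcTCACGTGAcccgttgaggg
Clcn7: ccgatgatagaTCACGTGAgacctgggcgc
Mcoln1: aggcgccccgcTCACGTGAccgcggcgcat
These stretches lie at chr8:105566050-105566079 (minus strand), chr17:26676387-26676416, chr16:44139373-44139402 (minus), chr2:164833749-164833778, chr2:164833766-164833795, chr7:142387908-142387937 (minus), chr17:25133386-25133415 and chr8:3500462-3500491. Ctsa, the protective cathepsin A, carried the core on both sides of its start, 13 bases upstream and 4 downstream. The match of Atp6v1a, the ATP-binding A subunit, lay farthest upstream, with its first base 132 bases before the start. A match describes letters and does not show binding.

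The first question was how the gene set varied over the course of arthritis. Together the 38 genes took 1.33% of all gene UMIs at baseline, 1.86% at peak, 2.51% at plateau and 1.31% at resolution. The median share per barcode went the same way, at 1.39%, 1.76%, 2.20% and 1.29%. With barcodes thinned to 1500 UMIs it was 1.33%, 1.73%, 2.20% and 1.27%. The 66, 276, 351 and 355 barcodes below that depth were left out of the thinned values. Plateau therefore stood highest by either measure, and resolution and baseline were close. The pump made most of the difference: V0 subunits took 0.197%, 0.388%, 0.796% and 0.206% of UMIs, and V1 subunits 0.123%, 0.213%, 0.412% and 0.128%. Cathepsins and legumain went from 0.43% to 0.658% and 0.65%, and back to 0.45%. With 1 library per stage these are descriptions of libraries, with no replicate check and no test of stage. The exact 95% Poisson intervals, which cover counting error alone, were within 4.17% of the value for the 12 most abundant members in every library.

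Atp6v0c, the proton-carrying ring subunit of V0, had the highest mean CPM over the 4 libraries and was the top member at plateau, with 845 CPM at baseline, 2103 at peak, 4495 at plateau and 893 at resolution. Atp6v0b, a second ring protein, gave 539, 853, 1770 and 508 CPM in the same order. Atp6v0e, a small V0 subunit, gave 414, 666, 1280 and 464 CPM. All 3 shared the order of plateau above peak above the other 2 libraries. Tcirg1, the a3 isoform used by osteoclasts, had 46.6, 109, 262 and 45.9 CPM, and was 5.71-fold lower at resolution than at plateau, the largest stage ratio of any member. Atp6v0a1, the widely used a1 isoform, went the other way, with 27.0, 25.2, 17.9 and 38.1 CPM, so that plateau was its lowest library. Atp6v0d1, a V0 subunit on the cytosolic face, stayed between 104 and 134 CPM.

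Of the V1 subunits, Atp6v1g1, part of the stalk, gave 318, 609, 1228 and 367 CPM. Atp6v1d, of the central rotor, gave 85.0, 233, 519 and 101 CPM. Atp6v1a, the catalytic A subunit, gave 76.9, 182, 440 and 87.9 CPM, and Atp6v1b2, the B subunit, 103, 172, 427 and 101 CPM. All 8 V1 subunits were past 1.5-fold lower at resolution than at plateau.

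The cathepsins did not share 1 pattern. Ctss, a cysteine protease of antigen-presenting cells, was highest at peak, with 1603, 2494, 1810 and 1892 CPM. Ctsc, which activates granule proteases, also had its top value there, with 344, 680, 492 and 262 CPM. Ctsl, a cysteine protease found in most cells, followed the pump instead, with 216, 602, 835 and 240 CPM. Ctsb gave 664, 773, 963 and 661 CPM, and Ctsz 412, 613, 730 and 443 CPM. Ctsh, an aminopeptidase, was lowest at the later stages, with 392, 412, 283 and 277 CPM. Thus Ctss, Ctsc and Ctsh were all lower at plateau than at peak, while Ctsl, Ctsb, Ctsz and Ctsd were higher. Of these only Ctsd (log2 0.76) was past 1.5-fold. Ctsb (0.32) and Ctsz (0.25) lay near the median of all genes in this contrast, 0.30.

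The membrane glycoprotein Lamp1 was highest at baseline and lowest at plateau, with 904, 614, 486 and 748 CPM. Laptm5, a membrane protein of blood-lineage lysosomes, gave 745, 750, 579 and 812 CPM. Clcn7 had 8.78, 16.0, 41.3 and 15.2 CPM and followed the pump. Mcoln1, a calcium channel of the lysosome, was the rarest member, at 6.06 to 9.67 CPM. Of the soluble proteins, Psap, the precursor of the sphingolipid activators, gave 1766, 1574, 1570 and 1292 CPM. Npc2, which carries cholesterol inside the lysosome, gave 1178, 1628, 1783 and 927 CPM. Lipa, the acid lipase that frees that cholesterol, had 88.2, 36.5, 52.1 and 90.8 CPM and was the sole member past 1.5-fold lower at peak than at baseline.

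**Figure D1:**
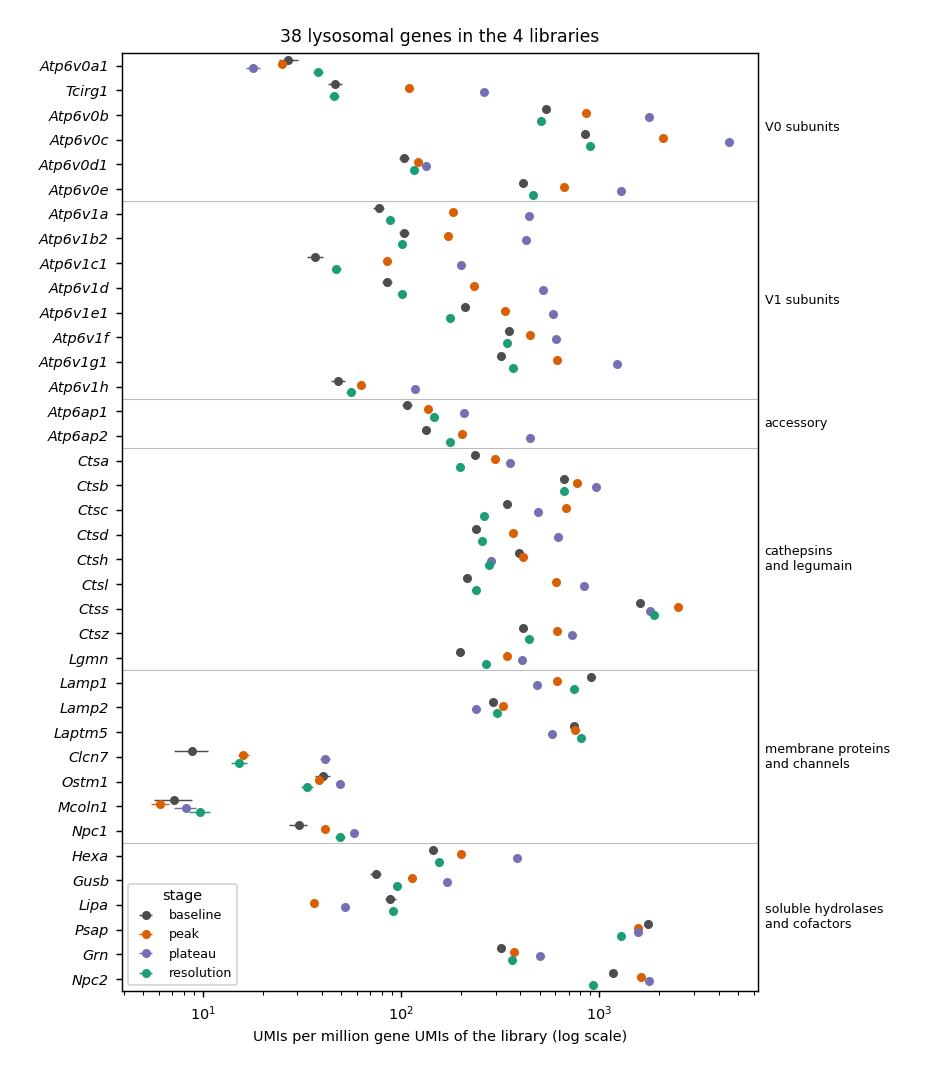
CPM (log axis) of the 38 genes in the 4 libraries, 1 dot per library with its exact 95% Poisson interval, ordered by role. Most pump subunits lie farthest right at plateau (Atp6v0c at 4495), while Atp6v0a1, Lamp1, Lamp2 and Laptm5 have their lowest dot there.

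Counted past 1.5-fold, 18 of 38 members were higher at peak than at baseline and 1 was lower, against 14.3% and 23.8% of the 13084 genes with at least 30 UMIs. At plateau 16 were higher than at peak and 0 lower, against 32.7% and 10.0% of 13501 genes. At resolution 23 were lower than at plateau, against 18.9% of 13291 genes, and 3 were higher (Atp6v0a1, Lipa and Lamp1). In either direction 42.6% of genes were past 1.5-fold there. Between resolution and baseline 2 were higher, Clcn7 and the cholesterol transporter Npc1, and 0 lower, against 24.0% and 10.8% of 12658 genes. The median log2 ratio of the members was 0.52, 0.48, -0.83 and 0.11 in these 4 contrasts, where that of all genes was -0.13, 0.30, 0.06 and 0.18. Scaling by edgeR's TMM totals put the median of all genes at 0.07, 0.05, -0.03 and 0.04. On that scale 22 members were past 1.5-fold higher at peak than at baseline, against 20.1% of all genes. Plateau against peak gave 13 higher and 7 lower in place of 16 and 0, against 20.6% and 16.1% of all genes.

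A large part of the stage pattern sat in 1 class of barcodes. Barcodes in which Acp5 (tartrate-resistant acid phosphatase) and Ctsk (cathepsin K), enzymes that mark osteoclasts and are not among the 38 genes, made up at least 2% of UMIs numbered 0, 178, 443 and 21 in stage order. They are called osteoclast-marker barcodes here. At plateau they were 15.7% of barcodes and held 34.9% of gene UMIs, 48.3% of the UMIs of the 38 genes and 68.5% of those of the V0 and V1 subunits. At peak they were 3% of barcodes with 32.1% of the pump UMIs, and at resolution 0.455% with 5.33%. The osteoclast-like cluster held 92.7%, 74.5% and 81.0% of them at peak, plateau and resolution. Unnamed cluster 19, with a median depth of 693 UMIs, held 101 of them. Its best match was 4 of 7 fibroblast markers, with 2 osteoclast markers. Without it 342 remained at plateau, and the numbers at peak and resolution did not change. CD61, the integrin that osteoclasts carry, was read by antibody in the osteoclast-marker barcodes at 3480, 4474 and 563 per 10000 antibody UMIs. The other barcodes had 87.5, 160 and 65.2. Median depth in the osteoclast-marker barcodes was 29199, 24440 and 15815 UMIs, against 8169, 6452 and 4892 in the others. The 7 summed fibroblast markers were at 17.9 to 55.4 CPM in them and at 2392 to 8032 CPM in the others, and the 9 neutrophil markers at 5.96 to 16.2 against 474 to 1653 CPM. At resolution 4 and 7 of these markers were at 0 in the class.

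Without these barcodes the 38 genes took 1.33%, 1.73%, 2.00% and 1.29% of UMIs. Plateau thus remained the highest library, with V0 subunits at 0.390% in place of 0.796%. Of the role groups, cathepsins and legumain then spanned the most percentage points, at 0.430%, 0.689%, 0.791% and 0.453%. Members past 1.5-fold higher numbered 9 of 38 for peak against baseline, against 12.5% of all genes, and 8 of 38 for plateau against peak, below the 32.5% of all genes. At resolution 16 of 38 were lower than at plateau, against 15.8% of all genes.

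The osteoclast-marker barcodes were compared with all other barcodes of the same library in 3 libraries, with UMIs summed per library and class and the library as a block (edgeR's quasi-likelihood test, Benjamini-Hochberg over 12281 genes). Of the 38 members, 18 rose, 12 fell and 8 were not called at an adjusted p of 0.05. Over all genes 18.1% were called higher and 31.8% lower, and the median log2 ratio was 0.46 for the members and -0.19 for all genes. A member that was not called is not shown to be equal between the classes. The 18 of 38 that rose lie above the 18.1% of all genes, while the 12 that fell lie near the 31.8%. The set did not move as 1 block: the pump was higher, and several cathepsins and membrane proteins were lower.

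All 8 V1 subunits rose, by log2 ratios from 1.22 (Atp6v1f) to 2.57 (Atp6v1d). Atp6v1d stood at 1058, 1117 and 623 CPM in the osteoclast-marker barcodes of peak, plateau and resolution, against 150, 199 and 94.0 CPM in the others, a fitted 5.93-fold difference (log2 2.57 ± 0.18 SE, adjusted p = 6.69e-08). Atp6v1b2 stood at 785, 909 and 554 against 110, 168 and 94.9 CPM (log2 2.50 ± 0.18, adjusted p = 8.63e-08). In both genes each value of the osteoclast-marker barcodes lay above each value of the others. How many of all genes lack overlap between the classes was not counted.

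Among the V0 subunits the isoforms parted. Tcirg1 (a3) stood at 445, 542 and 253 CPM against 74.9, 112 and 43.3 CPM, 5.10-fold higher (log2 2.35 ± 0.18, adjusted p = 1.50e-07). Atp6v0a1 (a1), which takes the same place in the pump, stood at 3.56, 3.29 and 8.94 CPM against 27.4, 25.8 and 38.5 CPM, 7.86-fold lower (log2 -2.97 ± 0.26, adjusted p = 5.10e-07). Neither gene's classes overlapped, which was not counted over all genes. Atp6v0c rose to 7561, 9076 and 6017 CPM from 1557, 2038 and 828 CPM (log2 2.32 ± 0.21, adjusted p = 5.22e-07). Atp6v0b and Atp6v0e rose by 1.93 and 1.72. Atp6v0d1 was not called (log2 -0.18 ± 0.19, adjusted p = 0.442), at 115, 137 and 98.3 CPM against 123, 132 and 116 CPM. Its isoform Atp6v0d2, a gene of osteoclast fusion outside the 38, stood at 1184, 1326 and 780 CPM against 29.5, 94.6 and 8.67 CPM (log2 5.06 ± 0.39, adjusted p = 1.43e-07). Of the accessory proteins Atp6ap2 rose (log2 1.98) and Atp6ap1 was not called (log2 0.46 ± 0.21, adjusted p = 0.0904).

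Of the cathepsins and legumain 6 fell, 1 rose and 2 were not called. Ctsc had the largest difference of any member: 34.3, 35.7 and 44.7 CPM in the osteoclast-marker barcodes against 744, 736 and 264 CPM, 18-fold lower (log2 -4.17 ± 0.31, adjusted p = 1.04e-07). Ctss stood at 218, 256 and 185 CPM against 2721, 2643 and 1913 CPM (log2 -3.57 ± 0.21, adjusted p = 1.02e-08). Ctsh fell by 2.83 and Lgmn, an asparagine-specific protease, by 1.65 on the log2 scale. Ctsl and Ctsb fell by 0.81 and 0.54, with classes that overlapped across libraries. Ctsa rose by 0.61. The aspartic protease Ctsd (log2 0.21 ± 0.18, adjusted p = 0.342) and Ctsz (log2 0.43 ± 0.18, adjusted p = 0.0646) were not called.

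Of the membrane proteins, Clcn7 rose 4.76-fold, from 10.7, 15.9 and 14.9 CPM in the other barcodes to 69.1, 88.7 and 41.7 CPM (log2 2.25 ± 0.23, adjusted p = 2.39e-06). Ostm1, its partner, rose by 0.63. Both lysosomal glycoproteins fell: Lamp1 stood at 67.1, 69.2 and 119 CPM against 668, 710 and 756 CPM (log2 -3.26 ± 0.22, adjusted p = 3.11e-08), and Lamp2 fell by 2.78. Laptm5 fell by 0.82. Mcoln1 and Npc1 were not called, and Mcoln1 had 0 UMIs in the 335699 gene UMIs of the resolution class, which allows up to 8.94 CPM. Of the soluble proteins, Hexa, a subunit of the ganglioside-degrading hexosaminidase, rose by 1.65 and Npc2 by 0.88. Psap fell by 0.72 and Lipa by 0.88, and Grn (progranulin) and Gusb were not called.

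**Figure D2:**
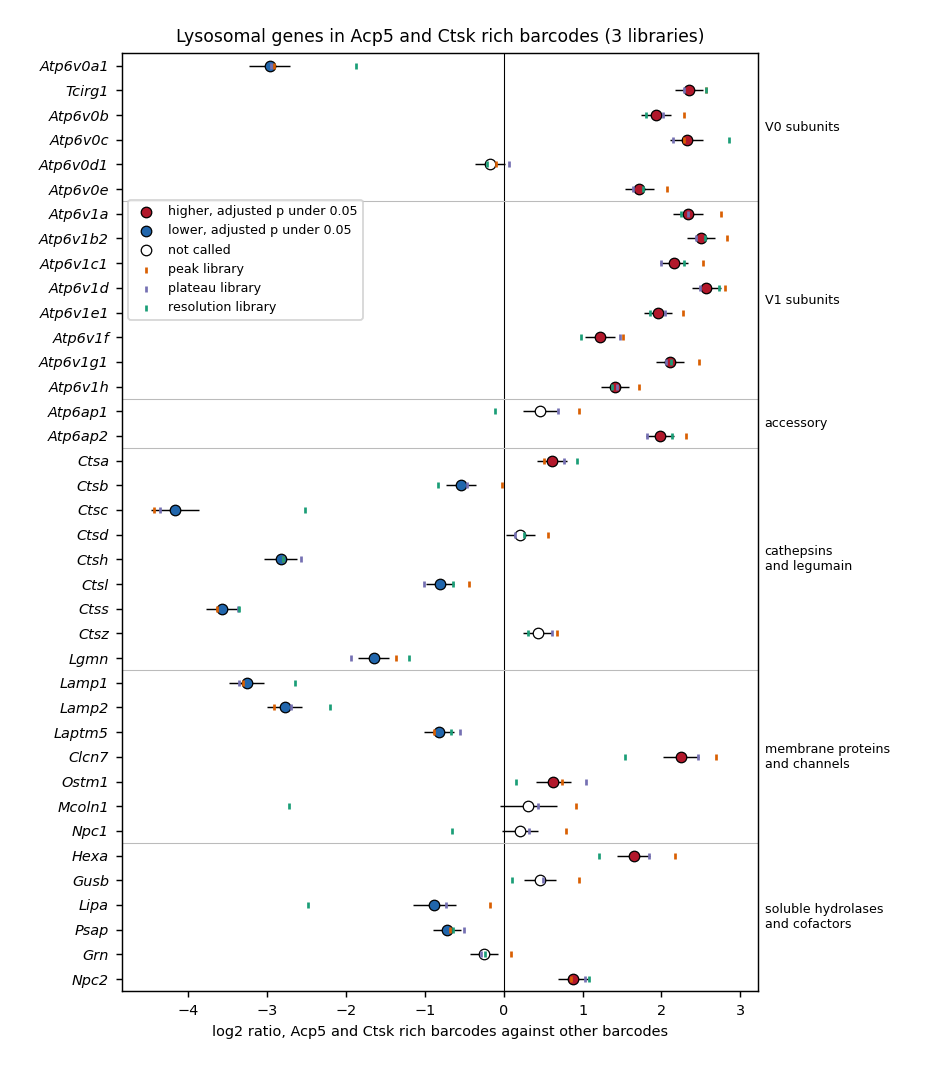
Log2 ratio of osteoclast-marker barcodes (Acp5 and Ctsk at least 2% of UMIs) to other barcodes for the 38 genes. Circles are the edgeR fit over 3 libraries with its SE, filled where called, and ticks are the CPM ratios of single libraries. V1 subunits lie between 1.22 and 2.57, and Ctsc, Ctss and Lamp1 lie below -3.

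Against the tissue macrophage-like clusters alone, 18 members were higher and 14 lower, where 46.9% of 9751 genes were called in either direction, and 29 of the 30 calls held there with the same sign. Ostm1 lost its call, Ctsz became higher (log2 0.77), and Ctsd (log2 -0.69) and Grn (log2 -1.32) became lower. Some calls rested on single libraries. Leaving out plateau ended the calls of Ctsa, Ctsb, Ctsl and Ostm1, leaving out resolution those of Ctsb, Lipa and Psap, and leaving out peak that of Ostm1.

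The role groups also differed along the share of Acp5 and Ctsk in a barcode within the peak and plateau libraries. At plateau V0 subunits took 0.335% of UMIs in barcodes with under 0.1% of Acp5 and Ctsk, 0.271% in those with 0.1% to 0.5%, 0.629% in those with 0.5% to 1%, 1.02% at 1% to 2%, 1.30% at 2% to 4% and 1.72% at 4% or more. Just below and just above the 2% threshold, the peak library gave 0.888% and 1.19%. Ctss went the other way, from 3256 CPM in the lowest class at plateau to 1294, 972, 577, 328 and 209 CPM in the classes above it, and Lamp1 from 814 to 624, 246, 145, 98.3 and 49.8 CPM. Ctsc at peak had 780 CPM in the lowest class, 112 and 137 CPM between 0.5% and 2%, and 44.9 CPM at 2% to 4%. Ctsb did not follow: at plateau it had 1064 CPM in the lowest class, 1485 CPM at 0.1% to 0.5%, 383 CPM at 0.5% to 1% and 857 CPM at 4% or more. Median depth differed between these classes, from 2330 to 32749 UMIs at peak, and its part was not tested. The class of 0.5% to 1% rests on 31 and 35 barcodes.

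**Figure D3:**
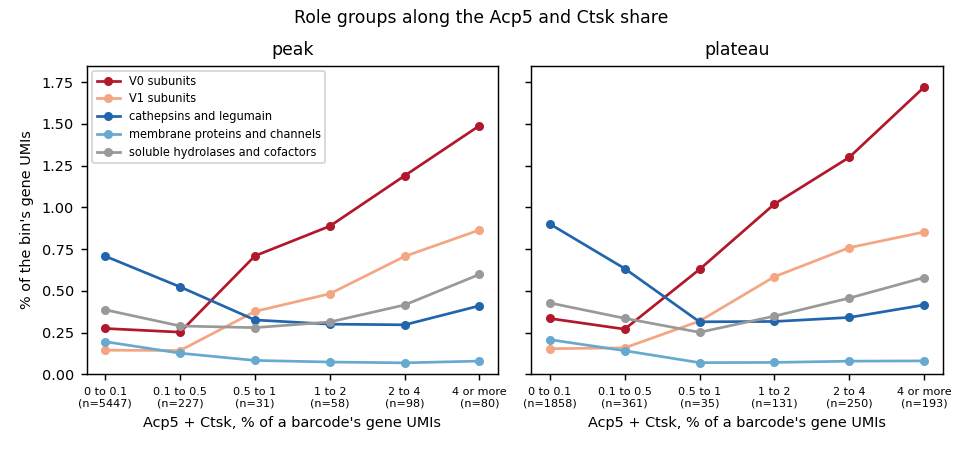
Share of gene UMIs taken by 5 role groups (vertical axis, percent) in barcodes grouped by their Acp5 and Ctsk share, for the peak and plateau libraries, with the number of barcodes under each class. V0 subunits reach 1.49% at peak and 1.72% at plateau in the top class, and cathepsins start at 0.708% and 0.901% in the lowest.

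Over 22 clusters, made from RNA and so giving a description only, the members' share ran from 0.619% in a B cell-like cluster to 3.21% in the osteoclast-like cluster. The make-up of the share differed as much as its size. In the osteoclast-like cluster V0 subunits took 1.39% and cathepsins 0.366%. In tissue macrophage-like cluster 0, led by Vsig4 and Timd4, they took 0.234% and 0.733%. Cluster 13, which no marker list named, had the highest Ctss, Ctsc and Ctsh, at 3885, 1203 and 654 CPM. Cluster 0 had the highest Lamp1 (1457 CPM), Lamp2 (646), Grn (986), Ctsd (959), Lgmn (888), Lipa (132), Npc1 (82.1) and Atp6v0a1 (71.5). The osteoclast-like cluster had the lowest Lamp1 (81.2 CPM), Lamp2 (49.6) and Atp6v0a1 (3.47) of the 22. Fibroblast-like cluster 18 had the highest Ctsl, at 1381 CPM.

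**Figure D4:**
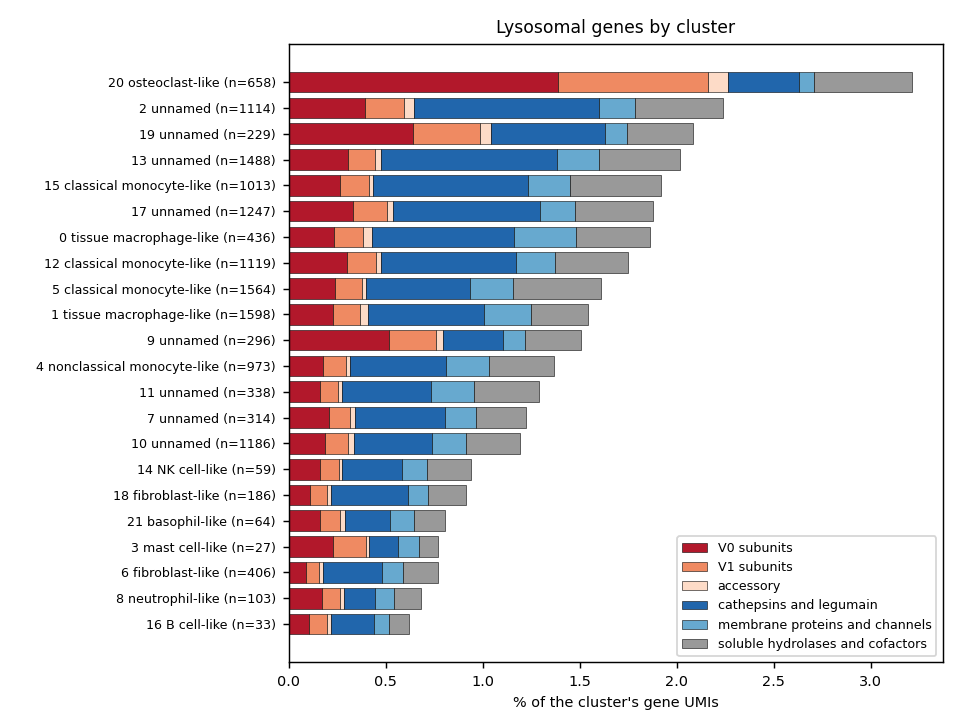
Share of gene UMIs taken by the 38 genes in each of 22 clusters (horizontal axis, percent), stacked by role group, with the number of barcodes. The osteoclast-like bar is longest at 3.21%, and its V0 and V1 parts are longer than those of any other cluster.

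Stage differences were also read within single clusters. In the osteoclast-like cluster 0 of 38 members were past 1.5-fold between plateau (401 barcodes) and peak (226 barcodes), where 11.6% of 10060 genes were. At resolution, with 31 barcodes, 27 of 38 were lower than at plateau, against 20.4% of 9524 genes, and the members' share was 2.07% against 3.38%. In tissue macrophage-like cluster 1, led by Aqp1 and Pf4, 19 of the 36 members with enough UMIs were higher at peak (71 barcodes) than at baseline (95 barcodes), against 13.9% of 4968 genes. Its share went from 1.41% at baseline to 2.50%, 2.43% and 1.43%. The other tissue macrophage-like cluster, 0, gave 6 of 36 higher (29 against 94 barcodes), near the 13.7% of its 5028 genes. Unnamed cluster 9, led by Nek2 and Sapcd2, gave 20 of 37 higher, against 25.2% of 7412 genes. Of its 296 barcodes 25 were osteoclast-marker barcodes, a class not seen at baseline. The neutrophil-like cluster gave 11 of 35, against 19.4% of 5192 genes, and the nonclassical monocyte-like cluster 4 of 36, against 14.4% of 5605 genes. Members lower at peak numbered 7, 3 and 2 in these clusters, in the same order. They numbered 0 in cluster 1, 1 in cluster 0 and 1 in cluster 5. The share of all genes lower was not taken in any of these clusters, so these lower counts cannot be judged. In fibroblast-like cluster 6 the members went the other way, with 15 of 37 lower at peak, against 25.3% of 7585 genes. Classical monocyte-like cluster 5 gave 4 of 38 higher in the same contrast, against 6.99% of 8535 genes, with shares of 1.52%, 1.66%, 1.86% and 1.56%.

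The chimera asks whether cells of donor and host origin differ. In the 4 libraries, 808, 5576, 2402 and 3249 barcodes were CD45.1, with an antibody ratio of at least 2-fold, and 190, 219, 239 and 730 were CD45.2. Sums of both variants were compared over 4 libraries with the library as a block (edgeR's quasi-likelihood test). Of the 38 members 3 (Ctsh, Ctsc and Psap) were higher in CD45.1 and 0 were higher in CD45.2 at an adjusted p of 0.05, against 9.95% and 9.85% of 11498 genes. DESeq2 called 4 and 1, where it called 2876 of 11498 genes in either direction.

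Ctsh stood at 455, 437, 314 and 320 CPM in CD45.1 barcodes and at 105, 106, 104 and 110 CPM in CD45.2 barcodes, 4.10-fold higher (log2 2.04 ± 0.19 SE, adjusted p = 0.00295, higher in 4 of 4 libraries). The CD45.2 values were nearly level over the 4 stages, and the variants did not overlap. How many of all genes lack overlap between the variants was not counted. Ctsc stood at 367, 731, 544 and 279 against 273, 236, 291 and 215 CPM (log2 1.05 ± 0.25, adjusted p = 0.0328), with overlap between the variants. Psap stood at 1952, 1644, 1672 and 1348 against 979, 1023, 1087 and 1048 CPM (log2 0.88 ± 0.19, adjusted p = 0.0226), with none. The call of Ctsc was lost without baseline (log2 1.17), peak (0.81) or plateau (1.09), with library totals without TMM (0.83, adjusted p = 0.0508) and at a log2 CD45 antibody ratio of 2 (adjusted p = 0.0533). That of Psap was lost without peak (log2 0.90) or plateau (0.97). Ctsh was called without any single library, with log2 ratios from 1.93 to 2.19.

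The variants held different cells. Tissue macrophage-like clusters made up 80.0%, 31.1%, 32.2% and 67.7% of CD45.2 barcodes and 4.33%, 0.43%, 1.62% and 27.9% of CD45.1 barcodes. The osteoclast-like cluster held 19.6% of CD45.2 and 3.12% of CD45.1 barcodes at peak. With equal numbers of barcodes of both variants drawn from each cluster, 51 of 10469 genes were called and Ctsh was the sole member among them (log2 0.88 ± 0.12, adjusted p = 0.0202), while Ctsc and Psap gave 0.13 and 0.28. Within the tissue macrophage-like clusters, a comparison chosen after seeing the data, Ctsh was higher in CD45.1 (log2 1.61 ± 0.15, adjusted p = 1.34e-05) and Ctsd higher in CD45.2 (log2 -0.81 ± 0.19, adjusted p = 0.0238). Cluster 0 and cluster 1 differed in Ctsh themselves, at 82.4 and 166 CPM.

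The members that were not called varied between libraries, as the examples below show, of which Grn, Atp6v0c and Tcirg1 were chosen after their values were seen. Lgmn stood at 103, 347, 434 and 213 CPM in CD45.1 and 741, 358, 316 and 488 CPM in CD45.2 barcodes. Ctsd stood at 145, 355, 631 and 208 against 766, 556, 566 and 432 CPM, and Grn at 245, 368, 494 and 318 against 749, 478, 573 and 531 CPM. CD45.2 was thus well above CD45.1 in all 3 genes at baseline and resolution, and Lgmn and Ctsd were higher in CD45.1 at plateau. Atp6v1a stood at 71.7, 167, 436 and 81.1 against 121, 458, 575 and 117 CPM, lower in CD45.1 in 4 of 4 libraries. At peak other pump subunits also stood apart, as Atp6v0c at 2052 and 3636 CPM and Tcirg1 at 104 and 214 CPM. The lowest fitted ratios were those of Ctsd (log2 -0.76 ± 0.37, adjusted p = 0.191), Lgmn (-0.66 ± 0.52, adjusted p = 0.401) and Atp6v1a (-0.57 ± 0.18, adjusted p = 0.0735).

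**Figure D5:**
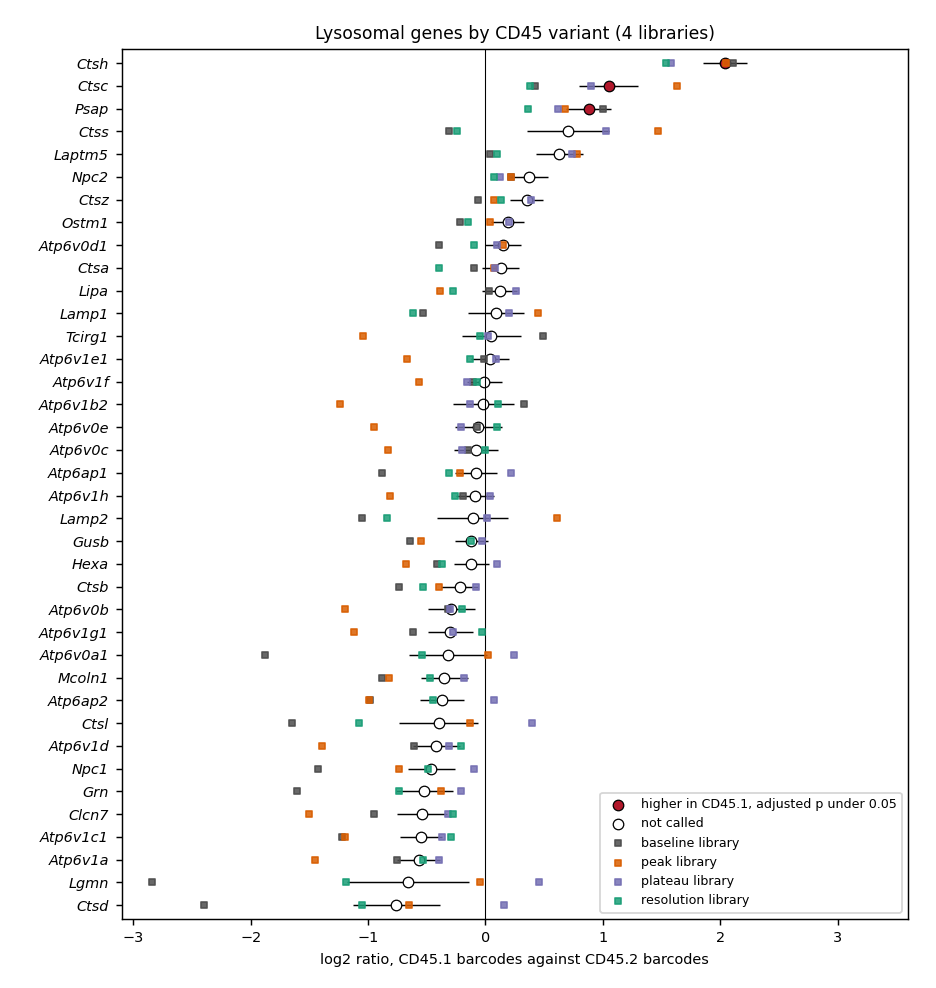
Log2 ratio of CD45.1 to CD45.2 barcodes for the 38 genes, ordered by the edgeR fit over 4 libraries (circles with SE, filled where called) with the CPM ratio of each library, without the TMM scaling of the fit, as a square. Ctsh lies at 2.04 with all 4 squares right of 0, and Lgmn and Ctsd have wide-set squares with baseline at the far left.

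An antibody to CD107a, the protein made by Lamp1, gave a second readout of 1 member at the cell surface. It took 22.9, 31.5, 33.6 and 98.1 per 10000 antibody UMIs in CD45.1 barcodes, and 387, 184, 84.0 and 349 in CD45.2 barcodes. CD45.2 was thus higher in all 4 libraries, while Lamp1 RNA was not called between the variants (log2 0.09 ± 0.24, adjusted p = 0.816), at 858, 630, 488 and 667 CPM against 1236, 461, 426 and 1026 CPM. Within the tissue macrophage-like clusters the antibody was closer, at 365, 277, 155 and 278 in CD45.1 and 397, 289, 162 and 420 in CD45.2 barcodes. It was highest in the mast cell-like cluster (1121) although Lamp1 RNA was at 140 CPM there, and next in fibroblast-like cluster 18 (464) and in clusters 0 and 1 (367 and 321). In the osteoclast-marker barcodes it took 32.4, 14.6 and 59.6 against 40.8, 46.3 and 163 in the others. CD61 fills much of the antibody total in these barcodes, and with it left out the values were 49.7, 26.4 and 63.1 against 41.2, 47.1 and 164, so that the peak library turned. No isotype control was used here, so background binding is unknown.

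The wider lysosome list of 77 genes outside the 38 was read in the same fits. In the osteoclast-marker comparison 67 were tested without Acp5 and Ctsk, and 24 rose and 15 fell, against 18.1% and 31.8% of all genes. The highest ratios were those of Atp6v0d2 (5.06), of Arsb, a sulfatase of glycosaminoglycans, at 309, 472 and 131 against 11.2, 36.3 and 39.9 CPM (log2 3.44 ± 0.41, adjusted p = 9.86e-06), and of Glb1, the lysosomal beta-galactosidase, at 132, 173 and 86.4 against 13.5, 20.8 and 10.8 CPM (log2 3.02 ± 0.19, adjusted p = 2.29e-08). The lowest were those of lysozyme Lyz2 (log2 -5.15 ± 0.31, adjusted p = 1.35e-08), of the sorting receptor Sort1, with 4, 1 and 0 UMIs in the osteoclast-marker barcodes, and of the metal transporter Slc11a1 (log2 -3.76 ± 0.25, adjusted p = 2.73e-08). Of 8 transcription factor and nutrient switch genes 3 rose and 1 fell, named after their values were seen: Mitf (log2 1.21), Tfec (1.34) and Rragd (1.93) rose and Tfe3 fell by 1.34. Tfeb was not called (log2 -0.22, adjusted p = 0.457).

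Between the CD45 variants 10 of 65 tested genes of the wider list were higher in CD45.1 and 7 in CD45.2, against 9.95% and 9.85% of all genes. Cathepsin F (Ctsf) stood at 3.00, 2.41, 7.63 and 10.4 CPM in CD45.1 and 41.1, 34.9, 45.5 and 42.7 CPM in CD45.2 barcodes (log2 -2.80 ± 0.31, adjusted p = 0.00379). The cathepsin inhibitor Serpinb6a (log2 -2.50) and the tetraspanin Cd63 (-1.64) were the next lowest. At the other end were the protease inhibitor Spint1 (log2 2.23), Sort1 (1.94) and Gm2a (1.60), the ganglioside activator, which stood at 406, 417, 386 and 611 against 124, 159, 164 and 264 CPM.

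By stage, 17 of the 77 were past 1.5-fold higher and 9 lower at peak than at baseline, 29 and 6 at plateau than at peak, 11 and 32 at resolution than at plateau, and 21 and 6 at resolution than at baseline. The shares of all genes in the first, second and last contrast were 14.3% and 23.8%, 32.7% and 10.0%, and 24.0% and 10.8%, so the 29 and the 21 lie near the share of all genes. At resolution against plateau 18.9% of all genes were lower. Of the regulators, chosen after their values were seen, Tfeb was highest at baseline, with 28.1, 14.0, 16.5 and 23.3 CPM, and Mitf at plateau, with 19.5, 26.4, 65.4 and 39.9 CPM. Among members with a matched promoter, the CLEAR core printed above stood in 4 of 14 that rose in osteoclast-marker barcodes (Atp6v0e, Atp6v1a, Ctsa and Clcn7), in 0 of 10 that fell and in 3 of 7 that were not called.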

How the data were processed

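CITE-seq libraries were read in 4 samples. Raw UMI counts of 32285 genes and 92 antibodies were deposited, made with Cell Ranger 6.1.2 per the file headers and with the mm10 build per the submitters' processing notes, which also list Seurat 4.4.0 without a role. Barcodes under 300 genes or above 10% of mitochondrial UMIs were removed. CD45 variants were set at a log2 ratio of antibody UMIs (1 added to each) of at least 1 or at most -1. No doublet caller was run: barcodes carrying 10 or more UMIs of each CD45 antibody (46, 127, 46 and 22 by stage) were left out as an alternative. Clusters came from scanpy 1.11.5 (2000 variable genes, 30 components, 15 neighbours, Leiden resolution 0.8, no integration), and a name needed at least 3 markers.

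Summed counts were tested with edgeR 4.0.16 (TMM, filterByExpr, adjusted p under 0.05), with DESeq2 1.42.0 as alternative. The libraries in a test are different stages. Its p-values weigh the mean difference against the variation left over these libraries, with dispersion estimates moderated over all genes. Stage ratios had 0.5 counts added. Both tests were tested on simulated data. Alternatives were other filters, thresholds and scalings, and each library left out. Genes were named from the 12 members of highest mean CPM and the 3 highest and lowest ratios of each comparison, with others to fill each role. The 38 genes, the wider list, the classes and the tests were chosen with earlier results of these data known.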

Additional observations from a re-analysis of the deposited data

Results flagged for a closer look

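The CD45.1 to CD45.2 ratio of Lamp2, a membrane glycoprotein of the lysosome, had opposite signs between stages. Its log2 ratio was 0.61 at peak (334 against 219 CPM), -1.05 at baseline (249 against 515 CPM) and -0.84 at resolution (260 against 466 CPM), and 0.01 at plateau. Each stage has 1 library, so the difference between stages was not tested. Tissue macrophage-like clusters, of which cluster 0 has the highest Lamp2 of all clusters, held 80.0% of CD45.2 barcodes at baseline, 31.1% at peak, 32.2% at plateau and 67.7% at resolution. At plateau Lamp2 stood at 229 CPM in CD45.1 and 227 CPM in CD45.2 barcodes. The osteoclast-like cluster, lowest of all clusters in Lamp2, held 3.12% of CD45.1 barcodes at peak and 13.9% at plateau. Its part of CD45.2 barcodes was 19.6% and 23.4%. The part of these clusters in the difference was not tested.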

How the results depend on the processing

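Members higher in CD45.1 numbered 1 to 3 when single libraries were left out, 5 without osteoclast-marker barcodes, 1 with equal barcodes per cluster and 1 within tissue macrophage-like clusters. Those higher in CD45.2 numbered 0 as reported, 1 with DESeq2, 2 without TMM, 1 without osteoclast-marker barcodes and 1 within tissue macrophage-like clusters. In the osteoclast-marker comparison 23 members were higher and 7 lower at a threshold of 4%, and 18 and 12 at 2%. At 4% Ctsb turned to 0.10, and Atp6ap1, Ctsd, Ctsz, Npc1 and Gusb gained calls. Over all genes 6175 of 12466 were called in either direction at 4%, where the share by direction was not taken. At 2%, 18.1% were called higher and 31.8% lower. The 4% threshold and the stricter barcode filter (500 genes, 5% mitochondrial UMIs) left under 20 such barcodes at resolution and used 2 libraries. Over all genes, 1144 were called higher in CD45.1 and 1132 in CD45.2. In both directions together 936 to 1935 were called without single libraries, 51 with equal barcodes per cluster and 237 within tissue macrophage-like clusters. The same count was 3009 of 11457 without osteoclast-marker barcodes, 2876 of 11498 with DESeq2 and 2345 of 11498 without TMM. Leaving out the low-depth cluster 19, chosen after seeing the data, kept 30 of 30 calls.

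The log2 ratio of the summed members was 0.48 for peak against baseline, and 0.68 with TMM totals, 0.38 without osteoclast-marker barcodes and 0.46 with the stricter filter. In the same order it was 0.43, 0.18, 0.20 and 0.35 for plateau against peak, and -0.95, -1.04, -0.63 and -0.85 for resolution against plateau. For resolution against baseline it was -0.03, -0.18 with TMM totals and -0.04 without those barcodes. Without them, members past 1.5-fold higher numbered 9, 8 and 1 in the first 3 contrasts, where 12.5%, 32.5% and 19.4% of all genes were. With TMM totals, 7 were lower at plateau than at peak, near the 16.1% of all genes, and resolution against baseline gave 1 higher and 2 lower. Over all genes the latter contrast gave 2369 higher and 1784 lower of 12658. The cause of these shifts was not tested beyond what the settings leave out.

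No paired analysis was possible because the labels carry no replicate numbers that stages share; the library was the block in both tests. Stage and library cannot be told apart, and 21 barcodes stand behind the resolution class.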

Other observations

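The CD68 antibody, against another lysosomal membrane protein, had 0 of 2144371 antibody UMIs at baseline, which allows up to 0.014 per 10000, and 26.1, 26.4 and 34.4 per 10000 at peak, plateau and resolution. It was therefore not compared with baseline. In the osteoclast-marker barcodes it took 174, 76.4 and 94.5 per 10000 against 22.1, 15.5 and 34.2 in the others, and Cd68 RNA was higher there too (log2 1.60 ± 0.19 SE, adjusted p = 7.56e-06 by edgeR).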
